A study of Mus musculus with 4 samples.

Results

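The major histocompatibility genes of mouse chromosome 17 were described here in whole-genome bisulfite sequencing (WGBS) of embryonic brain. They were taken as the genes of the GENCODE vM21 annotation (mm10, GRCm38) on chromosome 17 whose symbol begins with H2-. This gave 45 of 51229 autosomal genes, of which 34 were typed as protein coding and the other 11 as pseudogenes of several kinds. The group was selected on a measured value: a CpG-dense stretch near the start of H2-Q6 had higher methylation in Tet1 knockout (KO) than in wild-type (WT) brain under both diets. Values of KO minus WT are therefore given for the members as a description, with no p-value. Where members past a call rule that was run on all genes are counted in that contrast, the share of all genes past it stands beside the count and nothing is read from it. Differences between diets, and whether KO minus WT differed between diets, were tested over all genes. The start region of H2-Q6, which nearly coincides with that stretch, is included in those counts and was not called. Its levels under both diets entered the choice of the group, so nothing is read from that.

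WGBS reads the share of cytosines at a CpG that bisulfite does not convert. Methylated cytosine and its oxidised form, hydroxymethylated cytosine, both stay unconverted, so the levels called methylation here hold both. The 4 libraries came from single brains of male E11.5 embryos of the strain 129S6.cg Tet1<tm1Koh>. A KO and a WT embryo came from dams fed 30 ppm folic acid (excess FA), and the other KO and WT embryos from dams fed 3 ppm (control FA). Where 4 levels are given in a row, their order is KO and WT at 30 ppm, then KO and WT at 3 ppm. Per the study's methods the dams were heterozygous for Tet1, both diets also held the antibiotic succinylsulfathiazole, and the KO allele was of C57BL/6 (B6) origin, backcrossed to 129S6. Tet1 encodes an enzyme that oxidises methylated cytosine to hydroxymethylated cytosine and further products. There was 1 library per group, so no level has a replicate error, and a test on reads compares 2 embryos and not 2 conditions. The embryo numbers in the titles match a sample list of the study in which the neural tube failed to close in both KO embryos and the WT embryos were normal, so genotype, phenotype and litter cannot be told apart. The titles also give each embryo its own pregnancy number, so within a genotype diet and litter cannot be told apart either. Mean coverage of autosomal CpGs was 13.2 to 21.2 reads per library, highest in KO at 3 ppm. Mean autosomal methylation was 83.5% in KO against 81.4% in WT with excess FA, and 82.8% against 82.1% with control FA. Mitochondrial CpGs, the background for incomplete conversion, read as methylated in 0.914 to 0.938% of calls. CpG methylation does not measure the Tet1 protein, so the genotypes rest on the labels.

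Major histocompatibility genes encode the proteins that show peptides to T cells. Class I heavy chains pair with beta 2-microglobulin, and class II molecules are pairs of an alpha and a beta chain. In the mouse the classical class I genes H2-K1 and H2-D1 are widely expressed, while the many non-classical genes of the Q, T and M regions have narrower roles, and class II genes belong mainly to antigen-presenting cells. Brain tissue is known for low expression of both classes. The members comprised 2 classical class I genes, 8 Q genes, 6 T genes, 14 M genes, 5 classical and 5 non-classical class II genes and 5 others. The start region (1 kb on each side of the annotated start site), the gene body beyond it and the 5 kb flanks were scored from CpGs with 5 or more reads in each library. A feature needed 3 such CpGs. All 45 start regions and 43 bodies qualified. The bodies of H2-Ke6 and H2-Q3 did not.

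Much of what follows concerns exon 2, which encodes the first domain of the peptide-binding groove and is where the CpGs of class I genes are dense. The exon is shown for members whose methylation differed in distinct ways, with each CpG in capitals and the coding strand read 5′ to 3′. H2-Q6 (chr17:35425108-35425377, plus strand) and H2-Q7 (chr17:35439452-35439721, plus strand) encode the Qa-2 antigen. H2-T23 (chr17:36032153-36032422, minus strand) encodes Qa-1, a ligand of inhibitory receptors on natural killer cells. H2-T3 (chr17:36189601-36189870, minus strand) encodes the thymus leukaemia antigen, and H2-T10 (chr17:36120615-36120875, minus strand) belongs to the class I genes that γδ T cells recognise. H2-M10.1 (chr17:36325568-36325837, minus strand) is one of the M genes known from the vomeronasal organ and is shown for contrast, as it holds few CpGs.
H2-Q6 exon 2: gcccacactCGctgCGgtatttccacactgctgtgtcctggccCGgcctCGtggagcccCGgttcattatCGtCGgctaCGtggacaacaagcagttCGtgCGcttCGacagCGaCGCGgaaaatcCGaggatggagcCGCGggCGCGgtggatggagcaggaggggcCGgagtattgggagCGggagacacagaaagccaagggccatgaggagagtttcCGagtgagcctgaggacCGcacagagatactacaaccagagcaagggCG
H2-Q7 exon 2: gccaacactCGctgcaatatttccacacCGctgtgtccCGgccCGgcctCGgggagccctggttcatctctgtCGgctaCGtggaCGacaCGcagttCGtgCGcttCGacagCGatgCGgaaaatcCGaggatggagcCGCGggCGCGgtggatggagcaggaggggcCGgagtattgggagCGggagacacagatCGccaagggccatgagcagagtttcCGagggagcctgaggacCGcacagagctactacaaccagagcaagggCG
H2-T23 exon 2: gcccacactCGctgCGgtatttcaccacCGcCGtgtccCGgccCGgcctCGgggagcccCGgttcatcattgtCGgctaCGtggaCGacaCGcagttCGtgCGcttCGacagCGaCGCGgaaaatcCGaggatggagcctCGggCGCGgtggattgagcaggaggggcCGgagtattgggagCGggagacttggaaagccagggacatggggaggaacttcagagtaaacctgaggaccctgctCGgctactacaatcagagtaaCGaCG
H2-T3 exon 2: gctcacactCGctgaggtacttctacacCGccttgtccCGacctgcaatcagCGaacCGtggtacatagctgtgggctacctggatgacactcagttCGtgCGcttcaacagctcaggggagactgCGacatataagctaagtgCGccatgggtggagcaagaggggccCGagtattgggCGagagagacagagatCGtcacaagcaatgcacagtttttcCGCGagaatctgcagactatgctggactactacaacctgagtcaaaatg
H2-T10 exon 2: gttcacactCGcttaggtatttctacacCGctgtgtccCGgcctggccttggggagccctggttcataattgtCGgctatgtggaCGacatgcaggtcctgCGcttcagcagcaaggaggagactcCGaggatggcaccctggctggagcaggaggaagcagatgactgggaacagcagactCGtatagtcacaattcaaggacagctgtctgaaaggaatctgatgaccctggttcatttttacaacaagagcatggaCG
H2-M10.1 exon 2: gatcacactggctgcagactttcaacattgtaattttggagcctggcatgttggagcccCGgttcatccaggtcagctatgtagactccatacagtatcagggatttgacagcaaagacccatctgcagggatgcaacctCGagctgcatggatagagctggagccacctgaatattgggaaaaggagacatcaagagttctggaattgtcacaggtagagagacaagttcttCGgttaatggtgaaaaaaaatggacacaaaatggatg
Exon 2 held 24 CpGs in H2-Q6, 25 in H2-Q7, 27 in H2-T23, 14 in H2-T3, 9 in H2-T10 and 3 in H2-M10.1. The exons of H2-Q6 and H2-Q7 differed at 19 of 270 bases (93.0% identity) and shared 20 CpGs.

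The CpG-dense stretch lay over the start of H2-Q6. It was delimited as the run of 1 kb tiles around this start with KO above WT by at least 10 percentage points (points below) in both diets, which gave chr17:35424001-35426000. It held 106 CpGs in the reference, 81 of them scored. Methylation was 48.0% in KO against 15.8% in WT with excess FA, and 43.4% against 16.1% with control FA. KO minus WT was 32.2 points at 30 ppm (95% interval 28.5 to 35.8) and 27.2 points at 3 ppm (24.3 to 30.0). These and all later intervals (Wilson for levels, Newcombe for differences) cover counting error only. Since this contrast delimited the stretch, the differences describe it and support nothing. Of the tiles nearby, the one at 35440001 was just inside the limit, with 14.0 points in both diets, and so was that at 35434001, with 10.99 and 15.4. The tile at 35426001 was just outside, with 10.9 and 7.68 points at 30 and 3 ppm, and so was that at 35430001, with 10.9 and 7.72.

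The plot of single CpGs across the stretch shows its shape. KO was above WT at 80 of the 81 CpGs at 30 ppm and at 79 at 3 ppm. In WT, 54 CpGs at 30 ppm and 49 at 3 ppm were methylated in 10% of reads or less, against 2 and 0 in KO. The KO libraries were thus at intermediate levels across the stretch, while the WT libraries had a nearly unmethylated core. With excess FA the median number of reads per CpG was 14 for KO and 10 for WT, and with control FA 29 and 15.

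**Figure D1:**
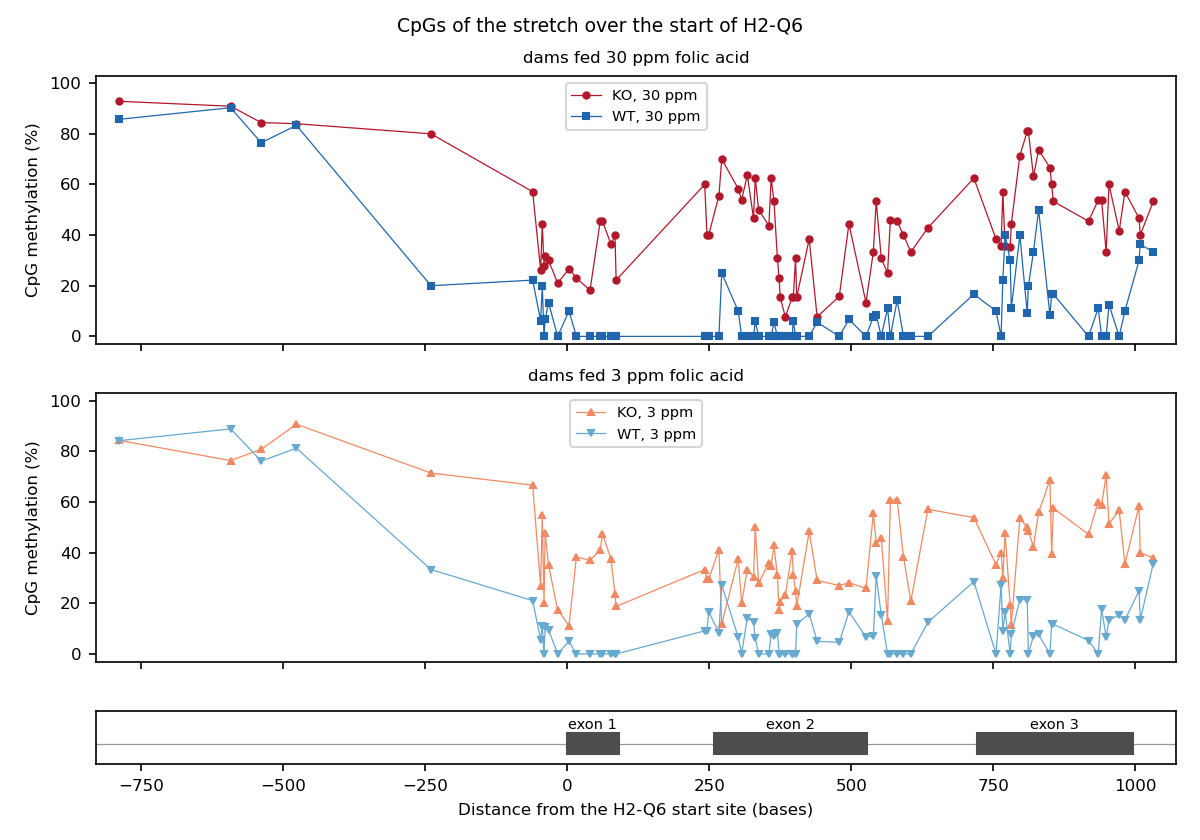
Methylation level (percent of reads) at each scored CpG of the stretch against its distance in bases from the annotated start of H2-Q6, 1 point per CpG in each library, with 30 ppm in the upper and 3 ppm in the middle panel and the exons of H2-Q6 below. The KO points lie above the WT points at 80 of 81 CpGs at 30 ppm and at 79 at 3 ppm.

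The difference ran on through the 250 bases before the start of H2-Q6, its first 3 exons and the introns between them. It is given here by exon. Exon 1 was methylated at 31.9% in KO against 2.00% in WT with excess FA, and at 31.0% against 0.67% with control FA. Exon 2 was at 36.9%, 2.19%, 30.4% and 6.52% in the same order, and exon 3, which encodes the second groove domain, at 56.2%, 17.1%, 48.3% and 9.93%. Past exon 3 the 4 libraries were closer to each other. From 1 to 2 kb past the start the levels were 74.4%, 65.3%, 71.9% and 62.6%, and in exon 6, at the end of the gene, 85.2%, 83.7%, 84.6% and 82.0%.

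The levels under both diets entered the choice of the stretch, so its differences between diets are also given with no test. In KO, methylation of the stretch was 4.65 points higher at 30 than at 3 ppm (1.20 to 8.09), and in WT it was 0.36 points lower (-3.39 to 2.74).

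Over the start regions of all 45 members, KO was above WT in both diets in 30 members and below in both in 2. The median difference was 5.35 points at 30 ppm and 4.81 at 3 ppm, beside 2.41 and 1.32 over all 48389 start regions. A feature was called where Fisher's exact test on its summed reads, with Benjamini-Hochberg adjustment over all features of its kind, gave an adjusted p under 0.05 and the levels differed by 10 points or more. By this rule 12 members were higher in KO at 30 ppm, where 9.08% of all start regions were, and none was lower, where 0.219% were. At 3 ppm 10 members were higher, beside 9.17%, and none was lower, beside 0.364%. With 10 or more reads required per CpG, which left fewer CpGs, 4 of the 32 members scored were called higher at 30 ppm and 6 at 3 ppm, beside 6.78% of all start regions in each diet. The 7 members called in both diets were H2-M5, H2-T22, H2-Q10, H2-T3, H2-T10, H2-Q6 and H2-T24. As the group was selected on KO against WT, nothing is read from these counts.

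**Figure D2:**
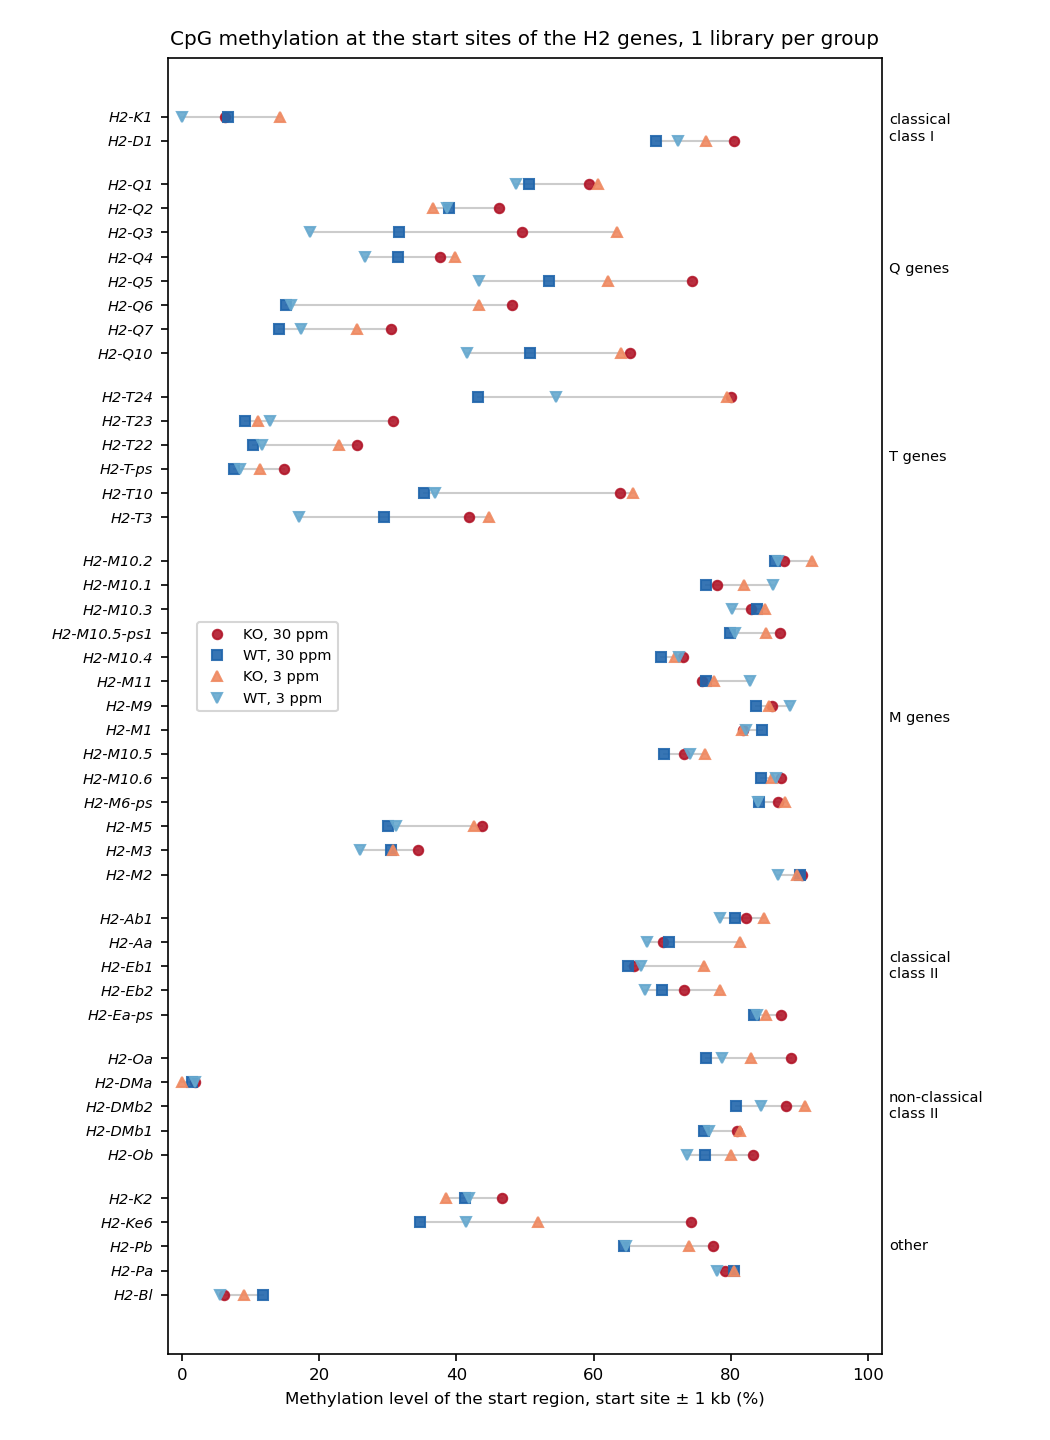
Methylation level (percent of reads, scored CpGs within 1 kb of the start) of the 45 members in each of the 4 libraries, with 1 row per member, grouped by class, and a grey line from the lowest to the highest library. The KO points stand apart from the WT points in several Q and T genes, and the points of most M10 genes lie together between 69.8% and 91.9%.

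The classes differed in level and in KO minus WT. Median differences at 30 and 3 ppm were 15.4 and 16.01 points in the Q genes, 18.3 and 18.1 in the T genes, 2.49 and 2.51 in the M genes, 1.58 and 9.18 in the classical and 7.07 and 4.43 in the non-classical class II genes. Of the calls, 3 at 30 ppm and 3 at 3 ppm were Q genes, 5 and 4 T genes, 1 and 1 M genes, and 1 and 2 class II genes. The remaining calls, both at 30 ppm, were H2-Ke6 and H2-Pb.

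**Figure D3:**
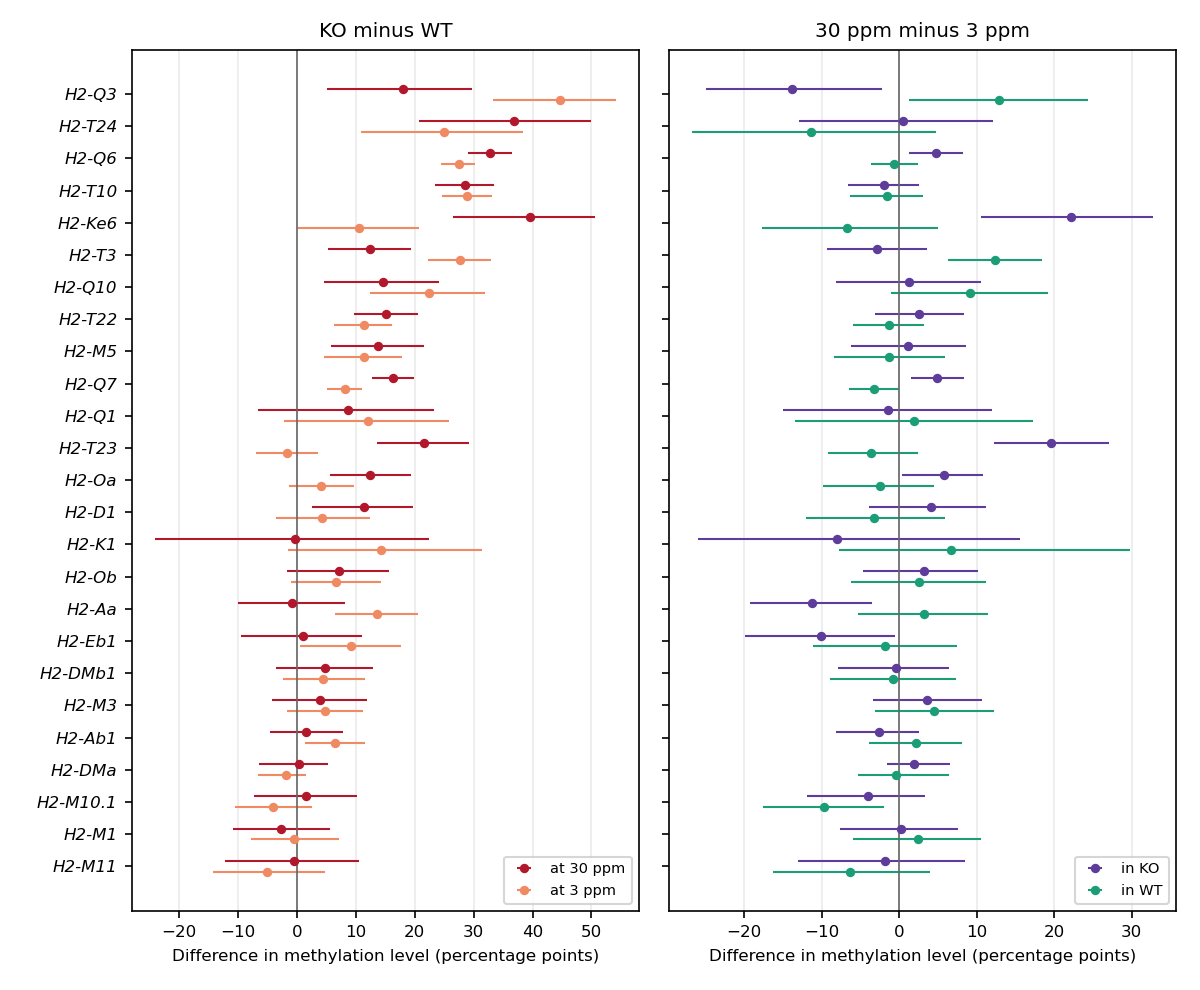
Differences in start region methylation (percentage points, with 95% Newcombe intervals for counting error) of the named members, ordered by mean KO minus WT. The left panel shows KO minus WT in each diet, where H2-Q6, H2-T10 and H2-T24 exceed 20 points in both, and the right panel shows 30 ppm minus 3 ppm in each genotype, where H2-T23 (19.6 points) and H2-Ke6 (22.2 points) lie to the right in KO.

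Among the Q genes, H2-Q6 had the most CpGs scored. Its start region (78 CpGs) was methylated at 48.1% in KO against 15.2% in WT with excess FA, and at 43.3% against 15.8% with control FA. H2-Q7, which lies next to it on the chromosome, showed a smaller gap, with 30.5%, 14.2%, 25.5% and 17.4% over 75 CpGs in the same order of libraries. In H2-Q7 the gap was widest in exon 3. Exon 1 was at 3.79%, 0%, 3.12% and 0%, exon 2 at 11.6%, 0.87%, 7.34% and 3.27%, and exon 3 at 66.4%, 31.4%, 58.1% and 27.9%. The 250 bases before its RefSeq start (7 CpGs) were at 24.4%, 5.10%, 23.7% and 15.3%, with KO minus WT of 19.3 points at 30 ppm (11.4 to 27.6) and 8.36 at 3 ppm (0.147 to 15.8). In both genes KO was thus above WT before the start and in exon 3, but the exon 1 and 2 levels of KO were well above those of WT in H2-Q6 and closer to them in H2-Q7.

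H2-Q10, whose product is a class I protein secreted by the liver, had levels of 65.3% and 50.7% in KO and WT at 30 ppm and of 63.9% and 41.5% at 3 ppm. Its 17 scored CpGs (of 120) all lay outside the first 500 bases of the gene. H2-Q3, a pseudogene, was at 49.6%, 31.7%, 63.4% and 18.8% over 14 CpGs and had the widest gap at 3 ppm, 44.6 points (33.3 to 54.1), beside 17.9 (5.11 to 29.8) at 30 ppm. H2-Q1 was at 59.3%, 50.6%, 60.7% and 48.6% over 7 CpGs. The other Q genes, H2-Q2, H2-Q4 and H2-Q5, differed between KO and WT by -1.93 to 20.8 points over 7 to 17 CpGs. In H2-Q1, H2-Q2 and H2-Q5 no scored CpG lay in the first 500 bases of the gene either, so their values describe the outer part of the start region.

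The T genes H2-T10 and H2-T22, ligands of γδ T cells, were both higher in KO. H2-T10 was at 63.8% in KO against 35.3% in WT with excess FA, and at 65.8% against 36.8% with control FA, over 39 of its 41 CpGs. In its exon 2 the levels were 71.8%, 32.5%, 66.2% and 34.7%. H2-T22 had lower levels throughout, 25.5%, 10.3%, 22.98% and 11.6% over 36 CpGs, and its exon 2 was at 34.7%, 8.62%, 37.2% and 5.00%. KO and WT intervals did not overlap in either gene in either diet. With 10 or more reads required per CpG, KO minus WT of H2-T22 at 30 ppm turned from 15.1 to -2.64 points. H2-T24 showed the pattern over only 6 CpGs, with 80%, 43.2%, 79.5% and 54.5%.

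H2-T23 and H2-T3 differed between the diets as well. The start region of H2-T23 (22 of 69 CpGs) was methylated at 30.7% in KO at 30 ppm (24.6 to 37.6), but at 9.24% in the WT library of that diet, and at 11.1% (KO) and 12.8% (WT) with control FA. KO under excess FA was the high library, and the intervals of the other 3 overlapped. Within KO the 30 ppm library was 19.6 points higher than the 3 ppm library (12.3 to 27.1; adjusted p = 1.92e-04, Fisher's exact test with Benjamini-Hochberg adjustment over all start regions), and within WT it was 3.61 points lower (-9.13 to 2.48; adjusted p = 0.80). KO minus WT was 21.5 points at 30 ppm and -1.70 at 3 ppm, and these differed by a Wald test of the 2 log odds ratios (adjusted p = 0.0119). KO at 30 ppm was the high library in exon 2, shown above, where 9 of 27 CpGs were scored, with 28.2% beside 5.17%, 2.70% and 4.03% in the others. It was also the high library at 5 CpGs of intron 2 next to this exon (chr17:36032001-36032152), with 36.6% beside 0%, 3.70% and 3.77% on 41 to 81 reads, where 0 of 57 reads allows a level of up to 5.26%. Exon 1 was at 10%, 3.57%, 5.45% and 5.71% and exon 3 at 4.08%, 1.08%, 4.46% and 1.06%, and in both the intervals of the 4 libraries overlapped. Of 261 tiles of 1 kb over members, the tile at chr17:36032001-36033000 was the one called between diets in KO (25.9% against 3.64% over 18 CpGs, adjusted p = 1.08e-06, Fisher's exact test, adjusted over 1863069 autosomal tiles), beside 0.0683% of all tiles. None was called in WT, beside 0.047%. With 2.5 kb on each side of the start the difference in KO was 8.91 points and did not pass (adjusted p = 0.080, same Fisher's exact test).

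In H2-T3 the lowest library was WT at 3 ppm, and WT at 30 ppm lay between it and the KO libraries. Levels over 24 of 30 CpGs were 41.9% in KO against 29.5% in WT with excess FA, and 44.8% against 17.1% with control FA. WT was 12.4 points higher at 30 than at 3 ppm (6.33 to 18.5; adjusted p = 0.0197, Fisher's exact test with Benjamini-Hochberg adjustment), while KO was 2.90 points lower (-9.31 to 3.61; adjusted p = 0.88). KO minus WT differed between diets by the Wald test (adjusted p = 0.0327). In exon 2 the levels were 40.8%, 30.6%, 47.5% and 8.06%. Exon 3 was at 49.4%, 30.8%, 46.3% and 25.95%, and WT at 30 minus 3 ppm there was 4.82 points (-6.97 to 16.96). In exon 4, over 3 CpGs, it was -13.9 points (-34.7 to 8.82). H2-T23 and H2-T3 were thus called between diets in different genotypes. After thinning of the reads to equal depth, the difference in WT was 11.7 points and did not pass (adjusted p = 0.12, same Fisher's exact test).

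H2-Ke6, which encodes a hydroxysteroid dehydrogenase (Hsd17b8), was the other member higher with excess FA in KO. Its levels were 74.1% in KO against 34.7% in WT with excess FA, and 51.9% against 41.4% with control FA, over 13 of 98 CpGs. None of the 51 CpGs in the first 500 bases of the gene was scored, so these values describe the outer part of its start region. The diet difference in KO was 22.2 points (10.6 to 32.8; adjusted p = 0.0361, Fisher's exact test with Benjamini-Hochberg adjustment). In WT it was -6.73 points (-17.7 to 4.97). After thinning to equal depth the difference in KO was 19.6 points and did not pass (adjusted p = 0.30, same Fisher's exact test).

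In all, 2 of 45 start regions were higher with excess FA in KO, where 0.349% of all start regions were, and 1 in WT, beside 0.248%. None was lower, beside 0.289% in KO and 0.279% in WT. KO minus WT differed between diets in 2 members, beside 0.893% of all. These calls rest on the reads of single embryos. With 10 or more reads required per CpG, H2-T23 and H2-Ke6 had too few CpGs to be scored. No member was then called between diets in KO, beside 0.0783% of all start regions higher and 0.0735% lower, or in WT, beside 0.0332% and 0.114%. None was called by the Wald test, beside 0.178%. After thinning, H2-T23 was still called in KO (18.2 points, adjusted p = 0.0249 by Fisher's exact test), and no member was called in WT or by the Wald test. limma takes the spread that genotype and diet leave between the 4 embryos, here with 1 residual degree of freedom. That spread is how far KO minus WT differed between the diets, so a diet difference in 1 genotype alone adds to it. limma called no member for diet at an adjusted p under 0.05, and 0% of all start regions, so the test decides nothing here. At an unadjusted p under 0.05 it had 2 of the 45 members and 2269 of 48389 start regions. The median difference between diets was 0.51 points in KO (all start regions, 0.55) and -0.48 in WT (all, -0.32).

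The M genes formed a contrast within the members. The 7 members named H2-M10, of a group known from sensory neurons of the vomeronasal organ, were at 69.8 to 91.9% in every library, with KO minus WT of -4.16 to 7.31 points. Their start regions held 12 to 26 CpGs in the reference. Small differences were common at such density: all start regions with under 30 CpGs had a median KO minus WT of 1.37 points at 30 ppm and -0.15 at 3 ppm. H2-M11 and H2-M1 were the 2 members with KO below WT in both diets. KO minus WT at 30 and 3 ppm was -0.51 and -5.15 points in H2-M11 and -2.75 and -0.60 in H2-M1, and every one of these intervals included 0. H2-M3, which presents formylated peptides of bacteria, was at 34.4%, 30.5%, 30.8% and 26.0%. H2-M5 was the M gene called in both diets, with 43.8% in KO against 30.0% in WT with excess FA, and 42.6% against 31.3% with control FA.

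The 2 classical class I genes were poorly covered. In H2-K1, 3 of 125 CpGs of the start region were scored, with levels of 6.25%, 6.67%, 14.3% and 0% on 15 to 28 reads, and no difference was detectable at this depth. H2-D1 had 19 of 110 CpGs scored, none of them in the first 500 bases of the gene, and levels of 80.5%, 69.1%, 76.4% and 72.3%. These values describe the outer part of its start region. With every CpG of 2 or more reads, its KO minus WT at 30 ppm went from 11.4 to -0.20 points.

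Around the annotated starts, class II genes were methylated at high levels in all libraries, except H2-DMa. The chains of the A molecule, H2-Aa and H2-Ab1, were at 70.1%, 71.0%, 81.3% and 67.8%, and at 82.2%, 80.7%, 84.9% and 78.4%. H2-Eb1, the beta chain of the E molecule, was at 65.9%, 65.0%, 76.0% and 66.8%. In H2-Aa and H2-Eb1 the KO library at 3 ppm was the highest. The 30 ppm library minus the 3 ppm library in KO was -11.2 points (-19.2 to -3.44) and -10.09 points (-19.9 to -0.495), and neither passed the test (adjusted p = 0.18 and 0.46, Fisher's exact test with Benjamini-Hochberg adjustment). The DO chains H2-Oa and H2-Ob, which restrain peptide loading by DM, were at 88.7%, 76.3%, 82.9% and 78.8%, and at 83.2%, 76.2%, 80.1% and 73.5%. H2-DMb1, a chain of DM, was at 76.1 to 81.3%. The annotated start of H2-DMa lies in a dense run of CpGs and was at 0 to 1.89% over 11 of 205 CpGs, 0 of 118 reads in KO at 3 ppm, which allows a level of up to 2.54% (3 counts). This start lies 3291 bases before the RefSeq start of the gene and 16113 before that of its longest coding transcript, around which (1 kb each way) the levels were 49.6%, 49.6%, 45.5% and 41.8%. The annotated start of H2-Ab1 likewise lies 5520 bases before that of its longest coding transcript, where the levels were far lower, at 20%, 16.8%, 23.1% and 8.95% over 22 CpGs. In H2-DMb2 the distance was 1964 bases, and the levels at the transcript start were 88.5%, 77.7%, 82.9% and 74.7%. The start region levels of these 3 members therefore do not describe that transcript's start.

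The profile of the Q genes includes the stretch that selected the group and is a description. In the plot of profiles, the Q genes in the first 500 bases were at 22.4% in KO against 1.85% in WT with excess FA, and at 19.9% against 3.63% with control FA. In the next 500 bases they were at 49.8% and 14.7%, and at 42.7% and 11.55%. From 1 kb before the start to 500 bases before it, all 4 libraries were at 74.8 to 85.9%. The first 500 bases of the Q profile came from 93 CpGs of 4 genes, of which H2-Q6 gave 34 and H2-Q7 38. Without H2-Q6, KO minus WT fell from 20.6 to 10.9 points in these first 500 bases at 30 ppm and from 16.3 to 8.46 at 3 ppm, and in the next 500 it was 32.8 and 24.2 points. The T genes were at 24.3% in KO and 15.1% in WT in the first 500 bases at 30 ppm and at 20.6% and 14.1% at 3 ppm. They were at 35.7% in KO and 17.2% in WT from 500 bases to 1 kb at 30 ppm, and at 36.0% and 12.7% at 3 ppm.

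**Figure D4:**
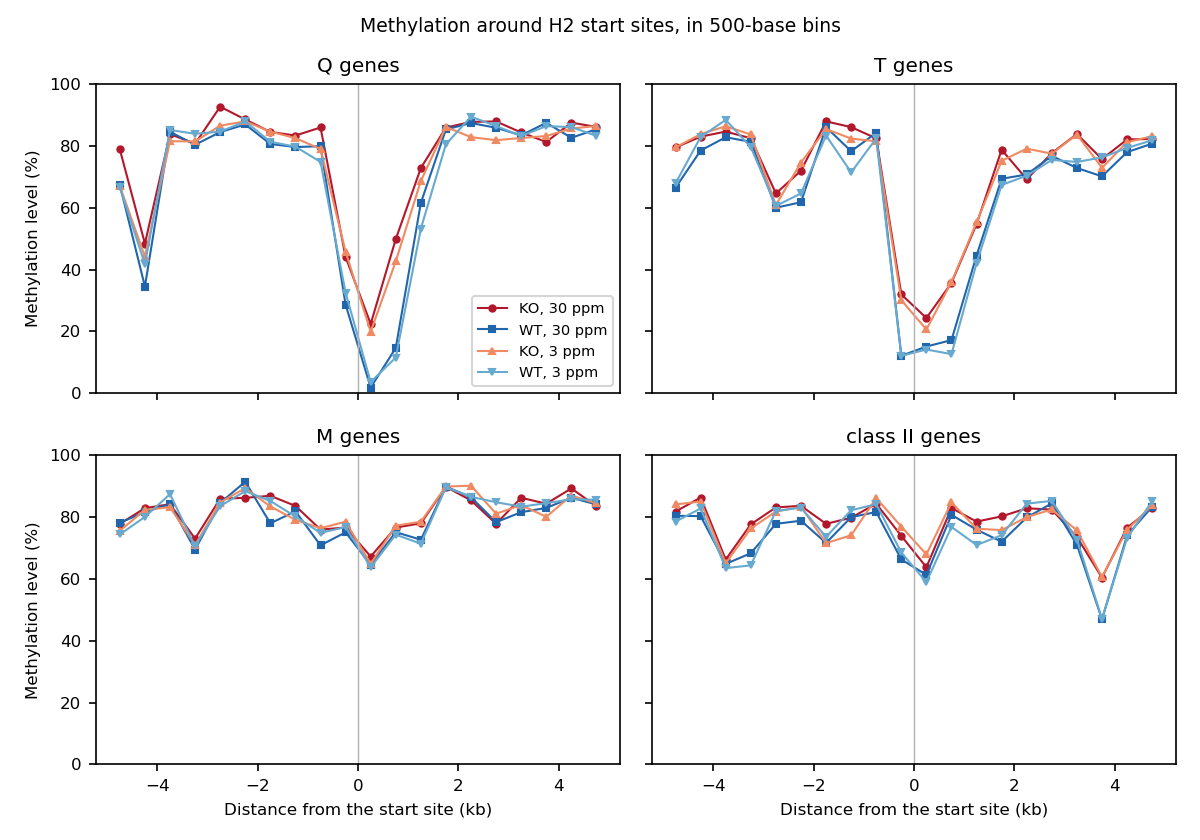
Methylation level (percent of reads) in bins of 500 bases by distance from the start site, up to 5 kb each way, for the Q, T, M and class II members in the 4 libraries. The KO lines lie above the WT lines in the first kb of the Q genes (22.4% against 1.85% in the first bin at 30 ppm), and the 4 lines of the M genes run close together.

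The gene bodies were more alike. Of 43 bodies, 2 were higher in KO at 30 ppm (3.22% of all 31686 bodies), H2-T-ps and H2-T10, and 3 at 3 ppm (2.64%), H2-Eb1, H2-D1 and H2-T22. None was lower, beside 0.117% and 0.114%. Between diets, the body of H2-Q1 was higher with excess FA in KO, at 90.2% against 78.2% (12.0 points, 5.35 to 18.0; adjusted p = 0.0172, Fisher's exact test with Benjamini-Hochberg adjustment), where 0.145% of bodies were. The body of H2-D1 was higher in WT, at 62.8% against 49.6% (13.1 points, 4.60 to 21.3; adjusted p = 0.0436, same test), where 0.123% were. The call of H2-Q1 was lost after thinning (8.18 points, adjusted p = 0.23), with 10 or more reads per CpG (10.99 points, adjusted p = 0.11) and with every CpG of 2 or more reads (10.04 points, adjusted p = 0.052, all by Fisher's exact test). That of H2-D1 was lost with 10 or more reads (9.77 points, adjusted p = 0.51) and with every CpG of 2 or more (12.4 points, adjusted p = 0.051, same test), and was made after thinning (15.5 points, adjusted p = 0.033). None was lower, beside 0.0884% in KO and 0.215% in WT. Median KO minus WT of the bodies was 2.26 and 3.26 points at 30 and 3 ppm (all bodies, 1.81 and 0.61), of the upstream flanks 3.16 and 1.02 (all, 1.84 and 0.48), and of the downstream flanks 1.81 and -0.14 (all, 1.68 and 0.40). The widest flank differences, 19.7 and 20.1 points before H2-DMb2 and 20.03 and 22.3 points after H2-DMa, overlap each other, as these genes are neighbours.

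The sequence upstream of the start was read for a class I and a class II member. The 250 bases before the RefSeq start (GRCm38) are shown for H2-Q6 (chr17:35424600-35424849, plus strand), and for H2-Aa (chr17:34287824-34288073, minus strand), with motif matches in capitals: the κB-like GGGATTCCC of class I promoters and the Y box CTGATTGG, both searched on both strands. No match overlapped another in these windows.
H2-Q6 upstream: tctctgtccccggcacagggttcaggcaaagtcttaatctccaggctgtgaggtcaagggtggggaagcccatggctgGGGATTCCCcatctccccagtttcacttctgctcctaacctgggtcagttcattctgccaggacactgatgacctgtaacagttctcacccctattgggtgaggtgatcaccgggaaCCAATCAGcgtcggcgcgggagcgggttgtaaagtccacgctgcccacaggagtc
H2-Aa upstream: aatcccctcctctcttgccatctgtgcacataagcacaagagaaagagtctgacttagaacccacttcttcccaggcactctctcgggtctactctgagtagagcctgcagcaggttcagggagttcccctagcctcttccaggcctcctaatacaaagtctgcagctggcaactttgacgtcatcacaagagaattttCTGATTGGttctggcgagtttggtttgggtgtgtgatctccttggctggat
The H2-Q6 window held the κB-like letters and a Y box and had 8 CpGs, all scored, at 36.0% in KO against 10.8% in WT with excess FA, and at 40.1% against 9.22% with control FA. The H2-Aa window held a Y box and 3 CpGs, of which 2 were scored on 13 to 32 reads, at 0 to 25%. Of the 32 members with a RefSeq promoter, 4 held the κB-like letters (H2-D1, H2-K1, H2-Q6 and H2-Q7), beside 0.342% of 25748 genes, and 17 held a Y box, beside 4.35%. The RefSeq start lay within 100 bases of the annotated start in 26 of the 32.

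CpG density and coverage varied widely. Of the start regions, 21 held under 30 CpGs in the reference, 8 held 30 to 59 and 16 held 60 or more, and the median share of their CpGs that was scored was 84.6%, 77.5% and 16.6%. In 15 members under 50% of the CpGs were scored, down to 2.40% in H2-K1, so the levels of CpG-rich members rest on the part of the region that was covered. KO was called higher than WT at 30 ppm in 2 of the 21 (all start regions of that density, 2.82%), 5 of the 8 (15.2%) and 5 of the 16 (17.3%), and at 3 ppm in 3 (2.12%), 4 (15.2%) and 3 (19.1%).

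**Figure D5:**
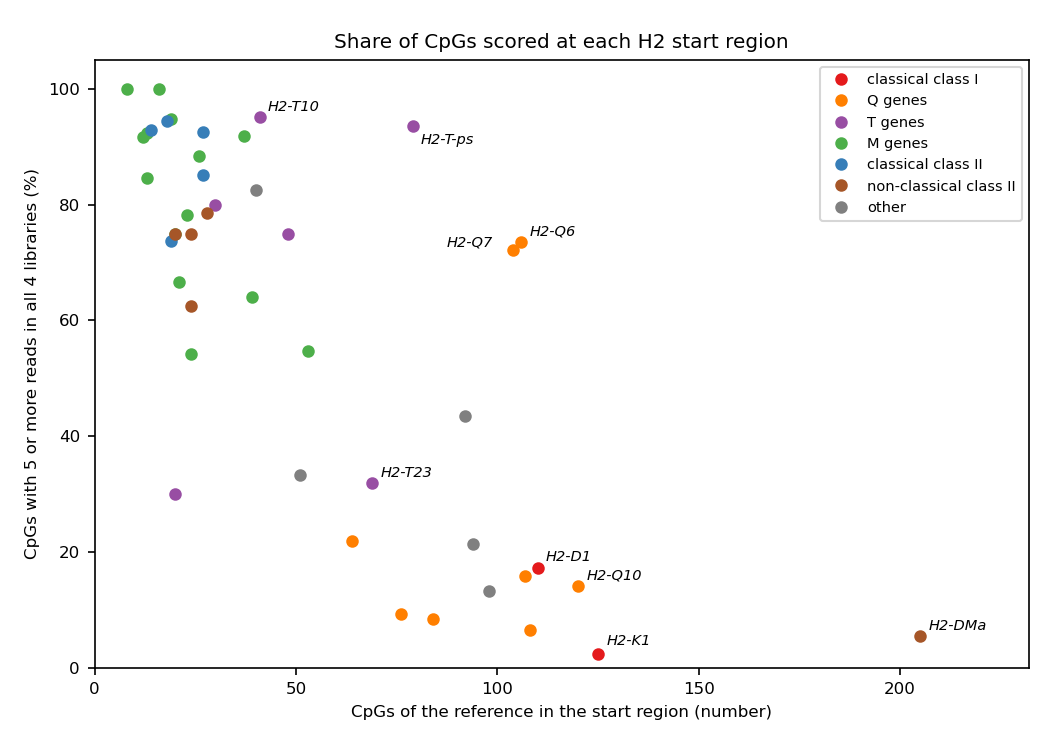
Share of the CpGs in each member's start region that were scored (percent, with 5 or more reads in all 4 libraries) against the number of CpGs in the reference, 1 point per member, coloured by class. H2-Q6 (78 of 106), H2-Q7 (75 of 104) and H2-T-ps (74 of 79) stand high among the CpG-rich members, and H2-K1 (3 of 125) and H2-DMa (11 of 205) lie at the bottom.

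These genes are also copies of each other, and the reads were aligned to the B6 reference. In 6 members (H2-Q5, H2-Q6, H2-Q7, H2-T23, H2-T-ps and H2-T3) the best match of the start region elsewhere in the genome, over 150 bases or more, had 95% identity or higher. In 3 more (H2-Q4, H2-M10.5-ps1 and H2-M6-ps) a match of lower score did. H2-Q6 matched H2-Q7 at 96.95% over 2002 bases, and H2-T23 matched H2-T-ps at 96.2% over 1862. Of the 6 members with such a best match, 4 were called higher in KO in either diet. The other 11 of the 15 members so called had no best match at that identity. Among these 11, H2-T10 and H2-T22 lay just under the limit, each the best match of the other, at 93.97% over 2072 bases and 93.85% over 2001. No CpG of the start regions was at 80% or more in both KO and 10% or less in both WT, or the reverse. The part of sequence copies and of strain differences in these levels was not tested.

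The lists of differentially methylated regions that the authors deposited were laid over the members. Of 4436 regions higher in KO at 30 ppm, 10 overlapped 9 members (20% of the 45, with start region or body counted), and of 4437 at 3 ppm, 10 overlapped 9. The same lists overlapped 5.78% and 5.92% of all 51229 autosomal genes. Among them were regions of 1080 and 1305 bases over the start of H2-Q6. Of the 54 and 57 regions lower in KO, none overlapped a member, beside 0.0664% and 0.0449% of all genes. Of the diet lists only that of regions higher with excess FA in WT (79 regions) touched a member, H2-T3, with 113 bases at chr17:36189812-36189924, where 3 CpGs were scored at 50.0% at 30 ppm and 6.67% at 3 ppm on 15 to 18 reads in WT. That list overlapped 0.139% of all genes. The lists of regions higher and lower with excess FA in KO overlapped 0.183% and 0.105% of all genes, and that of regions lower in WT 0.0781%.

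Outside the members, 33 genes of antigen presentation were scored. KO was called higher in 13 at 30 ppm and in 11 at 3 ppm, beside 9.08% and 9.17% of all start regions, and lower in none, beside 0.219% and 0.364%. Called in both were the peptide transporter genes Tap1 and Tap2, the immunoproteasome subunits Psmb8 and Psmb9, the peptide editor Tapbpl, the class II factor Rfxap, Ifi30 and Cd1d2. Psmb8 was at 23.9% in KO against 5.11% in WT with excess FA, and at 32.2% against 6.82% with control FA. Tap1 was at 27.0%, 9.87%, 22.9% and 6.00% over 26 CpGs, and Psmb9 was close to it, at 28.5%, 9.84%, 24.8% and 6.51% over 27. Whether start regions of this list share CpGs was not checked, so the calls may not be separate. No gene of the list was called between diets, beside 0.349% of all start regions higher and 0.289% lower in KO, and 0.248% and 0.279% in WT. The gene for beta 2-microglobulin, B2m, was called at 30 ppm (34.4% against 22.8%) and not at 3 ppm (27.6% against 25.2%).

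The tissue label was checked by markers. Start regions of 6 neural genes were at a median of 1.49 to 1.77% in the 4 libraries, while those of 8 blood and microglial genes were at 86.3 to 88.8% and of 4 endothelial genes at 81.6 to 86.5%. None of the blood, microglial or endothelial start regions was called in a comparison. Of all start regions, 9.08% at 30 ppm and 9.17% at 3 ppm were higher in KO, and 0.219% and 0.364% lower. Between diets 0.349% were higher and 0.289% lower in KO, and 0.248% and 0.279% in WT. With so few markers beside these shares, nothing is read from that. Of the 6 neural genes, 1 (Fabp7) was called higher in KO at 30 ppm. Methylation of bulk tissue is a mean over all its cells, so a change in the share of cells cannot be told apart from a change in each cell.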

How the data were processed

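The 4 libraries were grouped by the genotype and diet in their labels. Per the study's methods and the submitters' processing notes, the authors trimmed reads (Trim Galore 0.6.10), aligned them to GRCm38 and removed duplicates (Bismark 0.23.1). The deposited tables hold, per CpG with both strands merged, the fraction of methylated reads and the count of reads, which the authors did not normalize. The lowest count was 2. Table positions count from 0 and were raised by 1. All 15871451 autosomal CpGs listed in the 4 libraries then lay on a CG.

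Methylated reads were recovered as fraction times count and summed over the 14907672 autosomal CpGs that had 5 or more reads in every library. A read counts at each CpG it covers, so counts are not independent and p-values can be too small. Fisher's exact test (two-sided), a Wald test of 2 log odds ratios (0.5 added) and limma 3.58.1 on log2((methylated + 1)/(unmethylated + 1)) with genotype and diet as terms were run on all 48389 start regions with Benjamini-Hochberg adjustment, in Python 3.11.15 and R 4.3.3. The tests were also run on simulated data, with reads drawn independently at the pooled level of each start region. These data hold no spread between embryos and no reads shared by CpGs, so they cannot check those limits. Copies were searched with blastn 2.17.0+.

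The members and gene lists were chosen with earlier results of these data known. Named were members of known role, those called between diets, those called in both KO against WT comparisons, those over the stretch, and the 3 highest and 3 lowest by KO minus WT. Members named beside a count or list were picked after their values were seen. Of the deposited region lists, made with DSS, 8 split by direction were used and 4 unsplit ones were not. They hold positions only. A lambda spike-in was not used here. Alternatives varied the read minimum, depth, CpG filters, window, minimum difference, averaging and pseudocount.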

Additional observations from a re-analysis of the deposited data

Results flagged for a closer look

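KO minus WT of the start region differed between the diets in 2 members by a Wald test of the 2 log odds ratios, adjusted over all start regions. In H2-T23 it was 21.5 points at 30 ppm and -1.70 at 3 ppm (adjusted p = 0.0119). In H2-T3 it was 12.4 points at 30 ppm and 27.7 at 3 ppm (adjusted p = 0.0327). Neither passed after thinning to equal depth or with 10 or more reads per CpG, where H2-T23 had too few CpGs to be scored. Each value rests on 1 embryo per group. The best match of each start region elsewhere in the genome had 96.2% identity over 1862 bases in H2-T23 and 95.3% over 384 bases in H2-T3, and the part of such copies in the differences was not tested.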

How the results depend on the processing

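No paired analysis was possible because each group holds 1 library, and for the same reason no library could be left out. With 10 or more reads per CpG and fewer CpGs tested, start regions called in KO against WT were 4 at 30 ppm (12 in the report) and 6 at 3 ppm (10), beside 6.78% of all start regions higher in each. Between diets 0 were called in KO, beside 0.0783% of all higher and 0.0735% lower, and 0 in WT, beside 0.0332% and 0.114%. Members whose KO minus WT differed between diets were 0, beside 0.178% of all. Bodies called were 0 for KO against WT at 3 ppm, beside 1.65% of all higher and 0.0995% lower. Bodies called between diets were 0 in KO, beside 0.083% higher and 0.0398% lower, and 0 in WT, beside 0.0863% and 0.146%. With every CpG of 2 or more reads, start regions called between diets in WT were 2 (1), beside 0.766% of all higher. Bodies called between diets in WT were 0 (1), beside 0.248% of all higher and 0.207% lower, and differences between diets by the Wald test 5 (2), beside 1.75% of all. With reads thinned to equal depth, start regions called between diets were 1 in KO (0.193% of all higher) and 0 in WT (0.116% higher, 0.160% lower). Bodies called between diets in KO were 0 (0.127% of all higher, 0.057% lower), and Wald calls 0 (0.376% of all). With 2.5 kb on each side, start regions called were 6 for KO against WT at 3 ppm (6.45% of all higher) and 0 between diets in KO (0.379% of all higher, 0.259% lower). With no minimum difference, bodies called were 9 at 30 ppm (2) and 7 at 3 ppm (3) for KO against WT, beside 33.8% and 19.8% of all bodies higher and 0.429% and 3.67% lower, and 3 between diets in WT (1), beside 0.540% higher and 6.15% lower. Without CpGs covered over 2 times the library mean, bodies called at 3 ppm were 6 (3), beside 2.74% of all higher, and KO minus WT of the stretch at 3 ppm was 30.5 points (27.2). Beyond these settings' own construction the cause was not tested. KO minus WT of H2-T22 at 30 ppm reversed to -2.64 points with 10 or more reads (15.1). Under the alternatives the stretch ranged from 31.2 to 35.0 points at 30 ppm. Another alternative left out CpGs at 80% or more in both KO and 10% or less in both WT, or the reverse. It took 0 CpGs from the members' start regions, so it could not test their counts. Strain variants shared by KO and WT are not found by that rule. Of 161 alternative values of the 29 called values of named members, 130 kept direction and call, 30 lost the call and 1 reversed. These values were taken because they were called, and KO minus WT values of the selected group are among them. The filter that took 0 CpGs from the start regions is also counted. The tally is therefore a description and nothing is read from it. limma called no member for diet under any alternative, beside 0.016% of all start regions with 2.5 kb on each side and 0% otherwise. Coverage limits H2-K1 (2.40% of CpGs scored), H2-DMa, H2-Q5, H2-Q2 and H2-Q1 most.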
